A study of Mus musculus with 6 samples.

Results

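The small leucine-rich proteoglycans analysed here were the 9 genes *Dcn* (decorin), *Bgn* (biglycan), *Aspn* (asporin), *Fmod* (fibromodulin), *Lum* (lumican), *Prelp*, *Omd* (osteomodulin), *Ogn* (osteoglycin) and *Podn* (podocan), taken by symbol from a table of 37384 gene symbols. All 9 were found in the table, and all 9 passed the filter on low counts that left 15674 genes for testing. RNA was sequenced from floated adipocytes of inguinal scWAT of male mice at postnatal day 7, in 3 libraries per genotype, each made from the pooled cells of 4 mice. L1L2-FF mice carried *Lats1*f/f*Lats2*f/f without Cre, and their L1L2-AKO littermates carried the same floxed alleles together with *Adipoq*Cre, in which the adiponectin promoter drives Cre in adipocytes. LATS1 and LATS2 are the kinases of the Hippo pathway that hold back the co-activators YAP and TAZ. Floxed alleles were thus shared by both genotypes, and Cre was present in L1L2-AKO mice alone.

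Small leucine-rich proteoglycans are secreted matrix proteins with a curved core of leucine-rich repeats. Most carry chains of chondroitin, dermatan or keratan sulfate, and many bind collagen fibrils and set how thick and how evenly spaced the fibrils become. Some also bind TGFβ or cell surface receptors. In adipose tissue, decorin and lumican are best known as products of fibroblasts and adipocyte progenitors, so their transcripts are familiar markers of the stromal compartment.

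Total counts were 30548473 to 32107917 per library. Values are given as CPM, the counts of a gene relative to the scaled library total, after TMM scaling, and a gene was called when the adjusted p of edgeR's quasi-likelihood test (Benjamini-Hochberg over the genes tested) was under 0.05. *Lats1* was lower in the libraries labelled L1L2-AKO, with 1160 to 1299 counts against 2383 to 3049 in L1L2-FF. *Lats2* was higher, with 3188 to 3987 counts in the libraries labelled L1L2-AKO and 2127 to 2772 in L1L2-FF. Counts per gene do not show whether its floxed exons were lost. As *Lats1* and *Lats2* went opposite ways, directions are given for the libraries labelled L1L2-AKO relative to L1L2-FF. The floated cells had high levels of adipocyte transcripts in both genotypes, such as *Fabp4* at 8164 ± 1201 CPM in L1L2-FF and 6610 ± 346 CPM in those labelled L1L2-AKO (SD, n = 3 each). Of 8 adipocyte markers, 2 were called lower and 0 higher, beside 7.18% and 9.28% of all tested genes. Without L1L2-FF replicate 1 or L1L2-AKO replicate 2 or 3 the count was 1, and without L1L2-FF replicate 2, with DESeq2 or with library size alone it was 4. *Adipoq*, whose promoter drives the Cre, was among the 2 and went from 2108 ± 349 to 877 ± 171 CPM (SD, n = 3 each).

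Of the 9 genes, 5 were called higher in the libraries labelled L1L2-AKO (*Fmod*, *Prelp*, *Podn*, *Bgn* and *Ogn*), 0 were called lower, and 4 were not called (*Dcn*, *Lum*, *Aspn* and *Omd*). Among all tested genes, 9.28% were called higher, 7.18% lower and 16.5% in either direction. Of the members, *Dcn* and *Lum* had an unadjusted p of edgeR's test under 0.05 with lower values, and DESeq2 called 1 of them lower (*Dcn*) and limma-voom 0. The count of 5 higher became 3 without L1L2-FF replicate 1 and 3 without L1L2-AKO replicate 3. The genotypes did not overlap in CPM for 6 of the 9, which were the same 5 with higher values and *Dcn* with lower values. Across all tested genes 36.4% did not overlap, 18% with higher and 18.4% with lower values in the libraries labelled L1L2-AKO. The median log2 fold change of the 9 genes was 0.90, beside -0.02 over all tested genes. The differences spanned more than 6 log2 units, from -0.72 for *Dcn* to 5.89 for *Fmod*. The 9 transcripts made up 0.104 to 0.172% of all counts in L1L2-FF and 0.294 to 0.545% in the libraries labelled L1L2-AKO. *Prelp* alone made up 0.0244 to 0.0474% and 0.147 to 0.342% of all counts. As each library was a pool, p-values rest on the spread between pools. In bulk RNA of this kind, fewer cells of a type and less RNA per cell cannot be told apart.

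**Figure D1:**
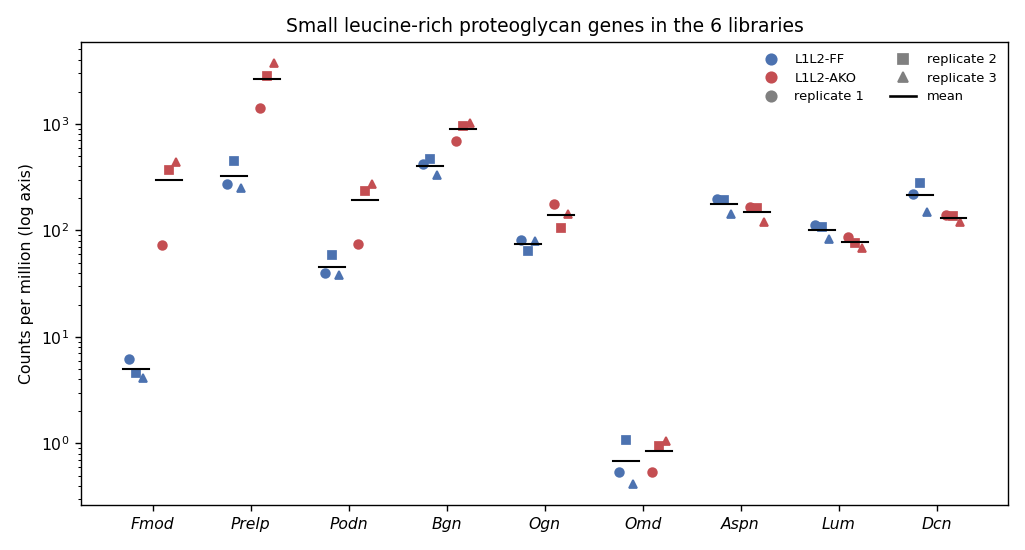
CPM of the 9 genes in each library on a log axis, with L1L2-FF in blue and libraries labelled L1L2-AKO in red, 1 marker shape per replicate number and a black line at the mean. Genes are ordered by log2 fold change. *Fmod*, *Prelp*, *Podn*, *Bgn* and *Ogn* stand higher in all 3 red libraries, *Dcn* stands lower in all 3, and the colours overlap for *Omd*, *Aspn* and *Lum*.

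Fibromodulin, PRELP, lumican and osteomodulin belong to the same subfamily, whose members bind fibrillar collagen, and osteomodulin is best known from bone and tooth. *Fmod* and *Prelp* lie next to each other on chromosome 1 of mm10 in GENCODE M21, *Prelp* from 133910304 to 133921414 on the minus strand and *Fmod* from 134037254 to 134048277 on the plus strand, with 115839 bases and no other protein-coding gene between them. They were also the members with the largest rises. The sequences just before their start sites and before that of *Ogn*, another riser, are shown because the former are the members with the largest rises and the latter holds the only match found to the motif of the TEAD transcription factors, through which YAP and TAZ act. The windows of *Bgn* and *Podn*, which also rose, held no match and are not printed. They are from RefSeq on GRCm38.p6, the assembly of mm10, written 5′ to 3′ on the strand of the gene, at chr1:134037004-134037253 (plus) for *Fmod*, chr1:133921415-133921651 (minus) for *Prelp* and chr13:49607765-49608014 (plus) for *Ogn*. Capitals mark the TEAD motif.
Fmod: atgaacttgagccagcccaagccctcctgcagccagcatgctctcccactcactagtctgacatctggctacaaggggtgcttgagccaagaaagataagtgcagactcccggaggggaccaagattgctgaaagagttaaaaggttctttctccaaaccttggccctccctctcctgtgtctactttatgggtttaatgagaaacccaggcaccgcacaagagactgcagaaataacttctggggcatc
Prelp: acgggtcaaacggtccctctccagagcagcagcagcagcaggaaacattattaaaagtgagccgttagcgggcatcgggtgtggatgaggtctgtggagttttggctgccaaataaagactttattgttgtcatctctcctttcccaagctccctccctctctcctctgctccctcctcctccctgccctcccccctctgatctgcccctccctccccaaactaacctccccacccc
Ogn: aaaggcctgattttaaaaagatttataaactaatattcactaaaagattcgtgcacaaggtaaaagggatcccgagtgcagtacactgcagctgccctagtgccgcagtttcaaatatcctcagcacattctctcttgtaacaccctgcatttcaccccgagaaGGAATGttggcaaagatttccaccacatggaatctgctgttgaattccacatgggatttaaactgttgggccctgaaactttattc
The TEAD motif was searched as CATTCC or its complement GGAATG in the 250 bases before each start. It occurred in 1 of 8 such windows of the 7 members with an entry, in that of *Ogn* at position -86 from the start site, and in 12.64% of 32851 windows of all genes. In GENCODE M21, 13 of the 250 bases for *Prelp* and 136 in 1 window of *Podn* lie in an exon of the gene. They were searched too, but the printed *Prelp* sequence leaves its 13 out and has 237 bases. The AP-1 motif TGANTCA, which reads as TGANTCA on the other strand too, occurred in 0 of the 8 windows and in 6.75% of all. A match of letters in so short a window is a description of the sequence only.

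*Fmod* was low in L1L2-FF and had the largest rise of the 9 genes. It had 6.22, 4.58 and 4.09 CPM in L1L2-FF replicates 1 to 3 and 72.3, 371 and 443 CPM in replicates 1 to 3 labelled L1L2-AKO. Each library labelled L1L2-AKO was far above every L1L2-FF library, and among the 3 the first was far below the others. The means were 4.96 ± 1.12 and 296 ± 197 CPM (SD, n = 3 each), and the log2 fold change was 5.89 (standard error 0.676, adjusted p = 0.00141, edgeR with Benjamini-Hochberg adjustment). On the linear scale the rise was 59.5-fold, with a 95% confidence interval of 20.2 to 175. Its log2 fold change was the 28th highest of all tested genes.

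*Prelp*, which encodes a collagen-binding protein with a basic heparin-binding end, was already well expressed in L1L2-FF and, per length of transcript, was the most abundant of the 9 in the libraries labelled L1L2-AKO. Its values were 274, 447 and 252 CPM in L1L2-FF replicates 1 to 3, and 1422, 2807 and 3708 CPM in the replicates labelled L1L2-AKO. The genotypes were separated by a wide gap, and the first library labelled L1L2-AKO was again the lowest of its group. *Prelp* went from 324 ± 107 to 2646 ± 1151 CPM (SD, n = 3 each), on the log2 scale a rise of 3.03 (standard error 0.392, adjusted p = 0.00222, edgeR with Benjamini-Hochberg adjustment), or 8.16-fold (95% confidence interval 4.36 to 15.2). Its log2 fold change was the 133rd highest of all tested genes. An exon of the antisense gene *Gm15851* overlaps *Prelp*, and 8.47% of the 50-base stretches of *Prelp* occur in it, but *Gm15851* had only 8 to 40 counts in a library, beside 7830 to 106202 for *Prelp*.

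The genes flanking this pair did not all share the rise. *Optc* (opticin), a family member 2304 bases from *Prelp*, had 61 to 137 counts in L1L2-FF and 120 to 182 in the libraries labelled L1L2-AKO, overlapping values with an adjusted p of 0.197 from edgeR's test with Benjamini-Hochberg adjustment (0.0498 without L1L2-FF replicate 2). *Btg2*, an antiproliferative gene on the far side of *Fmod*, fell by 1.33 on the log2 scale (adjusted p = 0.00818 from the same test).

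*Lum*, the lumican gene, had 112, 108 and 84.0 CPM in L1L2-FF replicates 1 to 3 and 86.8, 76.6 and 69.1 CPM in the replicates labelled L1L2-AKO. The values overlapped, since L1L2-FF replicate 3 was below the first library labelled L1L2-AKO. The means were 101 ± 15.3 and 77.5 ± 8.85 CPM (SD, n = 3 each), and the log2 fold change of -0.39 was not called (95% confidence interval -0.73 to -0.05, adjusted p = 0.114, edgeR with Benjamini-Hochberg adjustment). Without L1L2-FF replicate 3 it was -0.51, with an adjusted p of 0.0468. The contrast with *Fmod* was steep. Per base of exon, the ratio of *Fmod* to *Lum* was 0.0362 ± 0.00482 in L1L2-FF and 2.98 ± 2.13 in the libraries labelled L1L2-AKO (SD, n = 3 each), with 0.617 as the lowest value in the latter group.

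*Omd* was at the edge of detection, with 17, 35 and 13 counts in L1L2-FF replicates 1 to 3 and 18, 30 and 30 counts in the replicates labelled L1L2-AKO. At this depth the log2 fold change of 0.31 had a 95% confidence interval of -0.77 to 1.38 and the gene was not called (adjusted p = 0.715, edgeR with Benjamini-Hochberg adjustment).

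Decorin, biglycan and asporin form the subfamily closest to each other in sequence. Decorin and biglycan carry chondroitin or dermatan sulfate chains and bind TGFβ, while asporin lacks such chains and competes with decorin for collagen. Of the 3, *Bgn* alone was called. *Bgn*, at 73483602 to 73495933 of chromosome X (plus strand), had 424, 468 and 329 CPM in L1L2-FF replicates 1 to 3 and 692, 956 and 1031 CPM in the replicates labelled L1L2-AKO. The lowest library labelled L1L2-AKO was above the highest of L1L2-FF. *Bgn* rose from 407 ± 71.4 to 893 ± 178 CPM (SD, n = 3 each), 2.19-fold (95% confidence interval 1.58 to 3.05), or 1.13 in log2 units (standard error 0.206, adjusted p = 0.00878, edgeR with Benjamini-Hochberg adjustment).

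*Dcn* had lower values in the libraries labelled L1L2-AKO but did not pass the threshold. It had 220, 279 and 149 CPM in L1L2-FF replicates 1 to 3, and 140, 137 and 119 CPM in the replicates labelled L1L2-AKO. No value overlapped, but L1L2-FF replicate 3 lay close to the other group, and the L1L2-FF libraries were spread widely (coefficient of variation 30.2%) beside 8.60% in the other genotype. The means were 216 ± 65.2 and 132 ± 11.3 CPM (SD, n = 3 each), and the log2 fold change was -0.72 (95% confidence interval -1.21 to -0.22, adjusted p = 0.0578, edgeR with Benjamini-Hochberg adjustment). The call depended on the analysis: the adjusted p was 0.0397 with no filter on low counts, 0.0154 with DESeq2's Wald test and 0.0111 without L1L2-FF replicate 3. Per base of exon, the ratio of *Bgn* to *Dcn* was 1.85 ± 0.252 in L1L2-FF and 6.58 ± 1.79 in the libraries labelled L1L2-AKO (SD, n = 3 each). The groups cannot overlap in this ratio, because they did not overlap in *Bgn* or *Dcn*, which moved in opposite directions.

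*Aspn* had 198, 195 and 142 CPM in L1L2-FF replicates 1 to 3 and 167, 161 and 121 CPM in the replicates labelled L1L2-AKO. These values overlapped, and the log2 fold change of -0.25 was not called (95% confidence interval -0.67 to 0.16, adjusted p = 0.391, edgeR with Benjamini-Hochberg adjustment).

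The level of fibroblast and progenitor markers was measured beside these genes. Of 14 such markers, 3 were called lower (*Dpt*, *Pi16* and *Cd55*) and 0 higher, beside 7.18% and 9.28% of all tested genes. The summed level of the 14 was 1513 to 1916 CPM in L1L2-FF and 959 to 1041 CPM in the libraries labelled L1L2-AKO, without overlap. This separation rested on *Dpt*, at 531 to 1048 CPM in L1L2-FF and 206 to 292 CPM in the others. Without *Dpt*, a sum added after seeing the data, the other 13 came to 714 to 983 and 687 to 776 CPM, which overlap. *F3*, the tissue factor gene, had a higher mean in the libraries labelled L1L2-AKO, at a log2 fold change of 1.27, and was not called by edgeR (adjusted p = 0.0548 with Benjamini-Hochberg adjustment) but was called higher by DESeq2 (0.0031) and with no filter on low counts (0.023). The count of markers called lower was 1 without L1L2-FF replicate 1 and 1 without L1L2-AKO replicate 2, and *F3* was called higher without L1L2-AKO replicate 1. The median log2 fold change of the 14 was -0.42, while those of *Dcn*, *Aspn* and *Lum* were -0.72, -0.25 and -0.39. The part of these cells in the values of the 3 genes was not tested.

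Osteoglycin and podocan belong to more distant subfamilies. Osteoglycin, also called mimecan, is a small protein found on collagen fibrils, and podocan is a larger collagen-binding protein first known from kidney podocytes. *Ogn* had 81.3, 64.3 and 80.2 CPM in L1L2-FF replicates 1 to 3, and 175, 104 and 142 CPM in the replicates labelled L1L2-AKO. All 3 values were above the highest of L1L2-FF, and the first library labelled L1L2-AKO was here the highest. *Ogn* went from 75.3 ± 9.54 to 141 ± 35.5 CPM (SD, n = 3 each), 1.87-fold (95% confidence interval 1.37 to 2.55), or 0.90 in log2 units (standard error 0.196, adjusted p = 0.0181, edgeR with Benjamini-Hochberg adjustment). The call was lost without L1L2-FF replicate 1 (adjusted p = 0.0608) and without L1L2-AKO replicate 3 (0.0617), while the log2 fold change stayed between 0.71 and 1.08 with any library left out.

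*Podn* had 39.5, 59.4 and 38.1 CPM in L1L2-FF replicates 1 to 3 and 75.3, 237 and 273 CPM in the replicates labelled L1L2-AKO. The first library labelled L1L2-AKO lay nearer to L1L2-FF replicate 2 than to its own group. The means were 45.7 ± 11.9 and 195 ± 105 CPM (SD, n = 3 each), and the log2 fold change was 2.09 (standard error 0.437, adjusted p = 0.0155, edgeR with Benjamini-Hochberg adjustment), or 4.26-fold (95% confidence interval 2.12 to 8.56). The call was lost without L1L2-FF replicate 1 (adjusted p = 0.0711) or 3 (0.0522) and without L1L2-AKO replicate 2 (0.0575) or 3 (0.0551), with a log2 fold change of 1.78 to 2.48 over all 6 omissions.

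*Omd*, *Ogn* and *Aspn* lie together on the plus strand of chromosome 13, at 49582462 to 49592822, 49608046 to 49624501 and 49544443 to 49567565, within the gene *Cenpp* of the opposite strand. An exon of *Aspn* overlaps one of *Cenpp*, so reads there cannot be told apart without strand. *Ogn* rose, *Aspn* and *Omd* were not called, and *Cenpp* had 78 to 141 counts with a log2 fold change of 0.06. *Ecm2*, a further family relative at the end of this cluster, had a log2 fold change of -0.69 and was not called (adjusted p = 0.113, edgeR with Benjamini-Hochberg adjustment, and 0.0333 without L1L2-FF replicate 3). *Dcn* and *Lum* are likewise neighbours, on chromosome 10 at 97479609 to 97518143 and 97565128 to 97572703. The next gene there, the keratocan gene *Kera*, had 0 counts in 5 libraries and 2 counts in 1. *Podn*, at 108014791 to 108096445 of chromosome 4 (minus strand), overlaps *Scp2*, a peroxisomal lipid gene on the same strand. *Scp2* fell by 0.82 on the log2 scale (adjusted p = 0.0286, edgeR with Benjamini-Hochberg adjustment), against the direction of *Podn*, and kept its call in only 1 of 6 fits with a library left out. The neighbour *Slc1a7*, 1258 bases from *Podn*, had 3 to 13 counts in L1L2-FF and 14 to 41 in the libraries labelled L1L2-AKO. Its log2 fold change of 1.98 was not called (adjusted p = 0.0679 from the same test), but was in 1 of 6 fits with a library left out. *Echdc2*, on the other side of *Podn*, fell by 0.83 (adjusted p = 0.00782, also from that test).

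**Figure D2:**
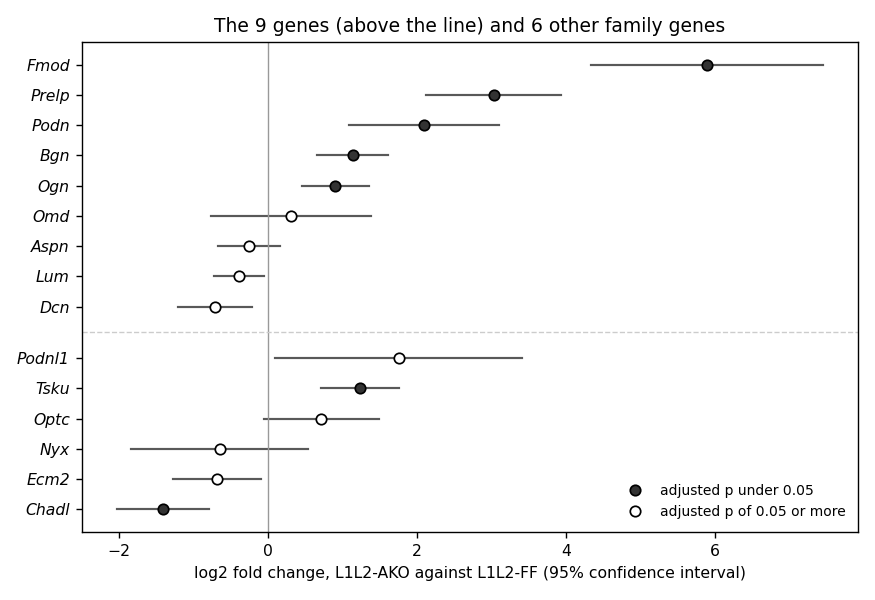
Log2 fold change (x axis) of the 9 genes above the dashed line and of 6 other tested family genes below it, with 95% confidence intervals as lines. Filled circles passed an adjusted p of 0.05 and open circles did not. *Fmod* is at 5.89, the other 4 filled members lie between 0.90 and 3.03, and *Tsku* and *Chadl* are the filled genes below the line.

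Of 9 further family genes in the table, 6 passed the filter. Of these, 1 was called higher and 1 lower, beside 9.28% and 7.18% of all tested genes. The number called higher became 2 without L1L2-FF replicate 2, when *Optc* was called, and the number called lower became 2 without L1L2-FF replicate 3, when *Ecm2* was called, and 0 without L1L2-AKO replicate 2. *Tsku*, the gene of the secreted signalling modulator tsukushi, had 7.07 ± 0.899 CPM in L1L2-FF and 16.6 ± 4.36 CPM in libraries labelled L1L2-AKO (SD, n = 3 each). Its rise on the log2 scale was 1.23 with a standard error of 0.226 (adjusted p = 0.00917, edgeR with Benjamini-Hochberg adjustment). *Chadl*, a chondroadherin-like gene, fell from 2.65 ± 0.388 to 0.997 ± 0.123 CPM (SD, n = 3 each), by 1.41 on the log2 scale (adjusted p = 0.0107 from the same test, and 0.0562 without L1L2-AKO replicate 2). As 16.01% of its 50-base stretches also occur in *L3mbtl2*, which it overlaps, its counts are uncertain. *Kera*, *Epyc* and *Chad* did not pass the filter.

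The libraries of a genotype did not vary in the same way for all members. In L1L2-FF, replicate 3 had the lowest value for 8 of the 9 genes, and *Ogn* was the exception. In the libraries labelled L1L2-AKO, replicate 1 was the lowest for 4 of the 5 genes that rose and the highest for the other one, *Ogn*. For 3 of the 4 genes that were not called, replicate 1 was the highest of its genotype. The coefficient of variation among the libraries labelled L1L2-AKO was 66.5% for *Fmod*, 53.9% for *Podn* and 43.5% for *Prelp*, but 8.60% for *Dcn*.

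Levels of different genes were compared per kb of exon, taken as all exon bases of a gene in GENCODE M21. In L1L2-FF the order was *Prelp* (89.7 ± 29.6 CPM per kb), *Aspn* (75.8 ± 13.4), *Bgn* (66.7 ± 11.7), *Lum* (41.4 ± 6.25), *Dcn* (37.0 ± 11.2), *Ogn* (29.3 ± 3.72), *Podn* (10.7 ± 2.79), *Fmod* (1.50 ± 0.338) and *Omd* (0.303 ± 0.157; SD, n = 3 each). The ranges of *Prelp* and *Aspn*, of *Aspn* and *Bgn*, of *Lum* and *Dcn*, and of *Dcn* and *Ogn* over the libraries overlapped. Such ranges ignore that genes were measured in the same libraries. Within each L1L2-FF library *Aspn* was above *Bgn*, while the order in the other overlapping pairs changed between libraries. In the libraries labelled L1L2-AKO the order was *Prelp* (732 ± 318 CPM per kb), *Bgn* (146 ± 29.2), *Fmod* (89.4 ± 59.5), *Aspn* (63.6 ± 10.8), *Ogn* (54.8 ± 13.8), *Podn* (45.6 ± 24.6), *Lum* (31.7 ± 3.61), *Dcn* (22.6 ± 1.94) and *Omd* (0.377 ± 0.119; SD, n = 3 each). There, by this length, *Prelp* stood clear of *Bgn*, and *Bgn* down to *Lum* formed a chain of overlapping neighbours.

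The order in L1L2-FF depended on the length used, because the exon bases of *Dcn* (5838) and *Bgn* (6099) include those of transcripts other than the principal ones, whose lengths are 1758 and 2419 bases. Per coding length *Bgn* came first, followed by *Prelp* and *Dcn*, and per length of the principal transcript, an alternative added after seeing the data, *Bgn* came first, followed by *Dcn* and *Prelp*. In the libraries labelled L1L2-AKO, *Prelp*, *Bgn* and *Fmod* were the first 3 by each of the 3 lengths. Per length of the principal transcript the libraries of *Prelp* and *Bgn* overlapped there, and those of *Bgn* and *Fmod* did not. Per coding length neither of these pairs overlapped.

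**Figure D3:**
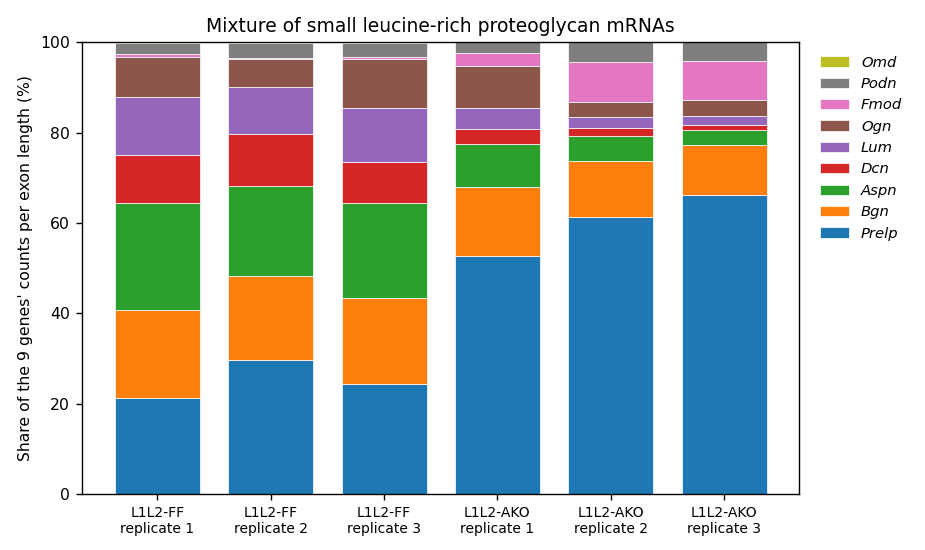
Share of each gene in the summed counts per exon length of the 9 genes (y axis, percent), 1 bar per library. *Prelp* makes up 25.1% on average in L1L2-FF and 60.1% in libraries labelled L1L2-AKO, while the shares of *Aspn*, *Dcn* and *Lum* are smaller in each of the latter.

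Expressed as a mixture, the 9 transcripts were led by *Prelp* in every library labelled L1L2-AKO. Per exon length, *Prelp* made up 25.1 ± 4.28% of the 9 in L1L2-FF and 60.1 ± 6.82% in the libraries labelled L1L2-AKO (SD, n = 3 each). *Fmod* went from 0.432 ± 0.0980% to 6.82 ± 3.37%. *Aspn* went from 21.6 ± 1.91% to 6.08 ± 3.17%, *Lum* from 11.8 ± 1.15% to 3.02 ± 1.54% and *Dcn* from 10.3 ± 1.296% to 2.12 ± 0.977%. The share of *Bgn* was also smaller, at 18.9 ± 0.533% and 12.8 ± 2.18%, although its own level rose, since shares add up to a whole. The ratio of *Prelp* to *Dcn* was 2.44 ± 0.385 in L1L2-FF and 33.3 ± 17.0 in the libraries labelled L1L2-AKO (SD, n = 3 each). The values of this ratio in single libraries were 16.5, 33.2 and 50.4 in the latter and at most 2.73 in the former. These values depend on the length, and the exon length of *Dcn* is the one that differs most from its principal transcript. Per coding length the mean ratio was 1.42 and 19.3, and per length of the principal transcript it was 0.735 and 10.04. The mean share of *Dcn* per principal transcript was 22.3% in L1L2-FF and 5.53% in the libraries labelled L1L2-AKO, and that of *Prelp* was 16.3% and 47.8%. By each length the groups did not overlap in either share. In the ratio the lack of overlap follows from that of *Prelp* and *Dcn* themselves, and a change of length cannot alter it.

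The enzymes that build the sugar chains of these proteins rose in part. Of 22 genes for chondroitin and dermatan sulfate chains, all tested, 5 were called higher and 0 lower, beside 9.28% and 7.18% of all tested genes. The median log2 fold change of the 22 was 0.37. DESeq2, and edgeR without L1L2-FF replicate 3, called 1 of them lower. *Chpf*, a factor needed to extend chondroitin chains, rose from 38.9 ± 4.38 to 107 ± 20.3 CPM (SD, n = 3 each), and the rise on the log2 scale was 1.46 with a standard error of 0.160 (adjusted p = 0.00119, edgeR with Benjamini-Hochberg adjustment). *Dse*, the epimerase that turns chondroitin into dermatan sulfate, rose from 51.0 ± 3.66 to 132 ± 25.4 CPM (SD, n = 3 each), with a log2 fold change of 1.37 (adjusted p = 0.00141 from the same test). The other 3 were *Chsy3* (log2 fold change 1.304), a chondroitin synthase, *B4galt7* (0.61), which adds the first galactose of the linker, and *Dsel* (0.55), a relative of *Dse*. The calls of *B4galt7* and *Dsel* held in only 2 and 1 of 6 fits with a library left out. *Fam20b*, the linker xylose kinase and among the 3 genes of the list with the highest CPM, had a log2 fold change of -0.20 and was not called. The count of 5 became 3 without L1L2-FF replicate 1, L1L2-AKO replicate 2 or L1L2-AKO replicate 3.

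Fibromodulin and lumican can carry keratan sulfate chains. Of 8 genes for such chains, 5 were tested and 1 was called higher, beside 9.28% of all tested genes. This was *B3gnt7*, an enzyme that extends the chain, at 0.254 ± 0.0669 CPM in L1L2-FF and 1.91 ± 0.277 CPM in libraries labelled L1L2-AKO (SD, n = 3 each; log2 fold change 2.89, adjusted p = 0.00185, edgeR with Benjamini-Hochberg adjustment). *B4galt1*, *Chst1* and *B4galt4*, the 3 genes of the list with the highest CPM, had log2 fold changes of 0.21, -0.28 and 0.72 and were not called, although DESeq2 called *B4galt4* higher (adjusted p = 0.0236). *Chst4* and *Chst5* had 0 counts in all 6 libraries. The count of 1 became 2 without L1L2-AKO replicate 3, and 0 with at least 10 counts required in every library.

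Of 14 genes of proteases that mature or cut the core proteins, or of enhancers of such proteases, 12 were tested. Of these, 6 were called higher and 1 lower, beside 9.28% and 7.18% of all tested genes. The median log2 fold change of the 12 was 0.56. *Adamts5*, an aggrecanase that also cuts small proteoglycans, had 121, 81.1 and 115 CPM in L1L2-FF replicates 1 to 3 and 1335, 1397 and 1915 CPM in the replicates labelled L1L2-AKO. Its log2 fold change was 3.88 (standard error 0.240, adjusted p = 0.00018, edgeR with Benjamini-Hochberg adjustment). *Pcolce*, the gene of an enhancer of procollagen cleavage, rose with a log2 fold change of 1.58 (adjusted p = 0.00186 from the same test). *Bmp1*, whose protease matures biglycan, rose with 0.61 (adjusted p = 0.0328, also from that test). *Mmp13*, a collagenase that can cut fibromodulin, rose with a log2 fold change of 3.01 from low levels, and *Mmp14* (0.73) and *Htra1* (0.55) rose as well, each with its call lost in 2 of 6 omissions, L1L2-AKO replicate 3 among them. *Tll1*, a relative of *Bmp1*, fell by 1.62 on the log2 scale (adjusted p = 0.0361), and without any 1 of 5 libraries this call was lost. *Mmp2*, a gelatinase, and *Pcolce2*, a relative of *Pcolce*, had lower values in every library labelled L1L2-AKO than in any of L1L2-FF. So did 18.4% of all tested genes. *Mmp2* had a log2 fold change of -0.93 (adjusted p = 0.0662, edgeR with Benjamini-Hochberg adjustment) and *Pcolce2* of -1.10 (adjusted p = 0.0644), and neither was called. With DESeq2 or with no filter on low counts both were, so that the number called lower was 3. That number was 2 without L1L2-FF replicate 3 and 0 without L1L2-FF replicate 1 or any 1 of the libraries labelled L1L2-AKO. The count of 6 became 3 without L1L2-AKO replicate 3.

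Of 17 fibrillar and fibril-associated collagen genes, 15 were tested. Of these, 4 were called higher and 1 lower, beside 9.28% and 7.18% of all tested genes. The median log2 fold change of the 15 was 0.41. *Col12a1*, a fibril-associated collagen, rose from 90.0 ± 10.6 to 872 ± 294 CPM (SD, n = 3 each), or by 3.28 on the log2 scale (adjusted p = 0.000404, edgeR with Benjamini-Hochberg adjustment), and *Col16a1* rose with 1.07 (adjusted p = 0.00894). *Col1a1*, the main chain of type I collagen, rose with 0.75 (adjusted p = 0.0427), a call lost with 5 of the 6 omissions of a library, and *Col5a1* rose with 0.66. *Col1a2* and *Col3a1*, the partners of *Col1a1* in interstitial fibrils, had log2 fold changes of -0.24 and -0.07 and were not called. *Col14a1*, another fibril-associated collagen, fell by 0.82 (adjusted p = 0.0164, lost without L1L2-FF replicate 1 and without L1L2-AKO replicates 2 or 3). The count of 4 became 2 without L1L2-FF replicate 1 or 3 or L1L2-AKO replicate 3.

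**Figure D4:**
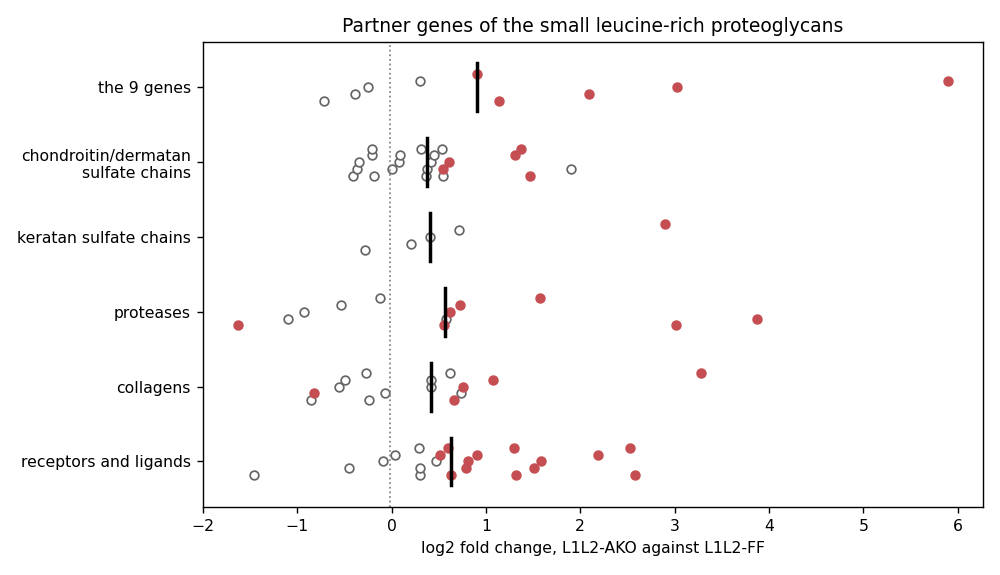
Log2 fold change (x axis) of every tested gene of the 9 members and of 5 lists of partner genes, with called genes as filled red circles, the others open, black bars at the list medians and a dotted line at the median of all tested genes (-0.02). The medians lie between 0.37 and 0.90, and each list holds open circles on both sides of the dotted line.

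The genes whose pattern over the 6 libraries was most like that of a member were looked for among 5624 genes whose log2 CPM averaged 5 or more, by the smallest root-mean-square difference in log2 CPM after each gene was centred. For *Fmod* these were *Sfrp1* (difference 0.471), *Sfrp5* (0.730) and *Efemp1* (0.888), which encode 2 secreted Wnt-binding proteins and the matrix protein fibulin-3. For *Prelp* they were *Gas6* (0.164), *Lox* (0.177) and *Chrdl1* (0.213), which encode a receptor tyrosine kinase ligand, the collagen crosslinking enzyme and a BMP antagonist. *Podn* was closest to *Hsd11b1* (0.124), *Gcnt2* (0.161) and *Thbs2* (0.174), and *Bgn* to *Spg20* (0.0529), *Col16a1* (0.0611) and *Rian* (0.0676). *Ogn* was closest to *Maoa* (0.102), *Atp2a3* (0.115) and *Dennd4a* (0.133), and *Dcn* to *Col14a1* (0.111), *Ier3* (0.117) and *Gbp7* (0.122). The nearest genes to *Lum*, *Aspn* and *Omd* were *Dusp6* (0.0312), *Tjp1* (0.0602) and *Scn7a* (0.141). These are descriptions over 6 libraries that share a genotype difference.

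Markers of other cells that could float with adipocytes differed between the genotypes beside these genes. Over all tested genes 9.28% were called higher and 7.18% lower. Of 10 macrophage markers, 9 were called higher and 0 lower, with a summed level of 257 to 496 CPM in L1L2-FF and 913 to 1030 CPM in the libraries labelled L1L2-AKO. Of 8 mural cell markers, 1 was called higher and 2 lower, and the latter count was 0 without L1L2-FF replicate 1 or L1L2-AKO replicate 2. It was 1 when L1L2-AKO replicate 3 was left out and 4 when L1L2-AKO replicate 1 was, as it was with DESeq2 or with no filter on low counts. The count of 1 higher was 0 without L1L2-AKO replicate 2. Of 8 endothelial markers, 0 were called by edgeR with genotype alone, DESeq2 or limma-voom, and 1 had an unadjusted p under 0.05 in edgeR. Of 8 Schwann cell markers, 5 were called lower and 0 higher, and all 8 had lower means in the libraries labelled L1L2-AKO. The count was 8 with DESeq2 or with no filter on low counts, 3 with limma-voom, and 1 without L1L2-FF replicate 2 or 3 or L1L2-AKO replicate 1 or 3. Of 7 markers of tendon and fibrous tissue, where *Fmod* and *Prelp* are well known, 4 were tested, *Fibin* was called higher and *Chodl* lower, the latter not without L1L2-FF replicate 1 or L1L2-AKO replicate 2 or 3, nor with at least 10 counts required in every library. The tendon transcription factor gene *Mkx* had at most 3 counts in any library and *Scx* stayed below the filter. The first library labelled L1L2-AKO, the lowest of its genotype for *Fmod*, *Prelp*, *Podn* and *Bgn*, had a macrophage sum of 929 CPM, between the 913 and 1030 CPM of the others. Its sums for tendon and fibrous tissue (21.1 CPM, beside 38.3 and 35.6) and for Schwann cells (165, beside 424 and 273) were the lowest of its genotype. The sum for tendon and fibrous tissue was mostly *Fibin* alone, at 19.2 CPM in this library, beside 36.3 and 33.4. The endothelial sum of this library (2076, beside 1723 and 998) and its mural sum (1681, beside 1622 and 1530) were the highest. The part of these cells in the values of the 9 genes was not tested.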

How the data were processed

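mRNA of floated adipocytes was measured in 3 L1L2-FF and 3 L1L2-AKO libraries, grouped by the submitters' labels. The authors aligned paired-end BGISEQ-500 reads to mm10 with HISAT2 2.1.0, used StringTie 1.3.5 and deposited raw counts per gene symbol, without normalization. The gene annotation, counting program and strand setting are not given in the sources used here, so reads of overlapping genes may be shared. All 37384 rows named a gene.

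Here the counts were tested as deposited in R 4.3.3 with edgeR 4.0.16: filterByExpr (minimum count 10, minimum total 15), which kept 15674 genes, TMM factors, the quasi-likelihood test with genotype alone, two-sided, and an adjusted p (Benjamini-Hochberg) under 0.05 as the call. The standard error is |log2 fold change| over the root of F, and intervals cover 95%. The common biological coefficient of variation was 0.206. At totals of 30548473 to 32107917 counts, precision was set mainly by the spread between pools, to which the low counts of *Omd* add counting error. No library was a copy of another, since counts of replicates differed beyond sampling noise. The fit was tested on simulated data. Positions, lengths and shared 50-base stretches came from GENCODE M21, and the windows before start sites from RefSeq (GRCm38.p6), where *Dcn* and *Lum* had no entry. Alternatives were other scalings and filters, DESeq2 1.42.0, limma-voom 3.58.1, a replicate block, each library left out in turn other gene lengths and a marker sum without *Dpt*.

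The members, the partner and marker lists and the rule for named genes were chosen with earlier results of these data known. The rule named the members, *Lats1* and *Lats2*, family relatives, neighbours, the 3 most abundant and up to 3 more called genes of each list, and the 3 genes most like each member. Not all of these are printed. *Bmp1*, *Col5a1*, *F3*, *Mmp2*, *Pcolce2*, *Cd14*, *Tlr2* and *Nlrp3* were named in addition, after their values were seen. Plots used matplotlib 3.10.9 under Python 3.11.15.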

Additional observations from a re-analysis of the deposited data

How the results depend on the processing

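The log2 fold changes of the 9 members kept their direction under all 14 alternatives. *Fmod*, *Prelp* and *Bgn* kept their calls under each. Leave-one-out fits called 1281 to 2845 genes in all, the number of members called higher was 3 to 5 and the number called lower was 0 to 2. Leaving out a library gave log2 fold changes of 0.71 to 1.08 for *Ogn*, 1.78 to 2.48 for *Podn*, -0.93 to -0.49 for *Dcn* and -0.51 to -0.30 for *Lum*, with the calls lost or gained as given above. *Dcn* was called lower, so that the number of members called lower was 1, with no filter on low counts (-0.71), with DESeq2's Wald test (-0.70) and with the replicate block (-0.67). The cause was not tested. Over the 6 omissions *Col3a1* ranged from -0.24 to 0.11, *Cenpp* from -0.17 to 0.23 and *Kdr* from -0.32 to 0.32, none of them called. *Kdr* was at -0.066 with limma-voom and -0.059 with the block.

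Same-numbered libraries of the genotypes correlated in their deviations from the group means with 0.134, 0.409 and -0.0733, and not every library correlated best with its own number, so the numbers were not taken to pair the samples. The block gave 2514 called genes in place of 2580, and its adjusted p for *Dcn* was 0.0385. With the block, 3 of the 8 endothelial markers were called lower in place of 0, 4 mural markers in place of 2, 8 Schwann cell markers in place of 5, 3 proteases and enhancers in place of 1 and 2 further family genes in place of 1, with *Ecm2* added (adjusted p = 0.0394). Called higher were *F3* (0.0303), in place of 0 progenitor markers, and 2 keratan sulfate genes in place of 1. The number of pools, 3 per genotype, limits all members, and low counts add to the error of *Omd*.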

Other observations

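The core proteins also act as ligands, and the 21 genes listed for their receptors and bound growth factors were all tested. In the libraries labelled L1L2-AKO 13 of them were called higher and 0 lower, beside 9.28% and 7.18% of all tested genes. The median log2 fold change of the 21 was 0.63, beside -0.02 over all tested genes, and their values ran from -1.46 to 2.58. *Egfr*, a growth factor receptor that decorin binds, had 26.8, 26.9 and 25.0 CPM in L1L2-FF replicates 1 to 3 and 106, 170 and 193 CPM in the replicates labelled L1L2-AKO (log2 fold change 2.58, standard error 0.218, adjusted p = 0.000457, edgeR with Benjamini-Hochberg adjustment). *Ccn4*, whose matricellular product binds decorin and biglycan, rose with a log2 fold change of 2.53 (adjusted p = 0.00329 from the same test). *Tgfb3*, a TGFβ ligand, rose from 15.2 ± 0.251 to 69.3 ± 23.4 CPM (SD, n = 3 each; log2 fold change 2.19, adjusted p = 0.00139). In these 3 genes too the first library labelled L1L2-AKO was the lowest of its genotype. The list also holds *Cd14*, *Tlr2* and *Nlrp3*, innate immune genes known from macrophages, which were among the 13 with log2 fold changes of 1.29, 0.78 and 1.51. Of 10 macrophage markers 9 were called higher in the same libraries (6 to 9 with a library left out), with a summed level of 913 to 1030 CPM against 257 to 496 CPM in L1L2-FF. The part of these cells in the values of the list was not tested. *Itgb1*, a collagen receptor subunit, rose with 0.52 (adjusted p = 0.0389), a call lost with any library left out, while *Lrp1* (0.47) and *Kdr* (0.03) were not called. The count of 13 became 5 without L1L2-FF replicate 1 or without replicate 2 or 3 labelled L1L2-AKO, and 8 without replicate 1 labelled L1L2-AKO. The count of 0 lower became 1 without replicate 3 labelled L1L2-AKO.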
